A study of Mus musculus with 6 samples.

Results

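Fat is stored in skin by the adipocytes of the dermal and subcutaneous layers and made for secretion by the sebaceous glands. The measurements concern 41 genes that carry out the steps of fat metabolism in such cells, from the uptake and synthesis of fatty acids through triglyceride assembly and storage in lipid droplets to lipolysis, with the transcription factors that govern these steps. The genes were chosen by name, with no measured value in the rule but with earlier results of these data known. All 41 were present among the 55291 genes of the count table and passed the filter on low counts. They were compared between the shaved back skin of 3 tight skin mice (TSK) and that of 3 wild-type littermates (WT), sequenced as 1 bulk RNA library per mouse. TSK mice carry an intragenic duplication in Fbn1, the gene of the microfibril protein fibrillin 1, in every cell of the body. All 6 mice were of the C57BL/6 strain and 6 to 8 weeks old by the labels, and the labels name neither a treatment nor a separation of the skin layers. The labels call the mice female whereas the study's methods call them male. The Y chromosome genes Ddx3y, Eif2s3y, Kdm5d and Uty were read at 56.7 to 72.8, 27.0 to 39.0, 31.4 to 46.2 and 27.4 to 36.5 CPM. All 6 libraries held RNA of each of these genes, so they came from male mice.

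A lipid droplet is a core of triglyceride under a coat of proteins, among which perilipins control the access of lipases. Triglyceride is assembled by adding fatty acids to glycerol phosphate, and it is taken apart in the order Pnpla2, Lipe and Mgll, the lipases for the first, the second and the last fatty acid. The fatty acids come from lipoproteins, through Lpl at the capillary wall, or from new synthesis by Acly, Acaca and Fasn, followed by the desaturases Scd1 and Scd2. Pparg and Cebpa are the transcription factors that establish the adipocyte state, and Srebf1 and Mlxipl switch on fatty acid synthesis in response to insulin and glucose.

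Library totals were 17561453 to 19219814 estimated counts, and values are given as CPM, the counts of a gene scaled to 1000000 per library, unless stated. Fbn1 was read at 267, 289 and 262 CPM in WT 1, 2 and 3 and at 1538, 2284 and 2007 CPM in TSK 1, 2 and 3, with log2 fold change 2.54 (± 0.22 SE, adjusted p 0.00327 by edgeR). The summed levels of marker genes differed between libraries. The summed level of 13 skeletal muscle genes was 155492 to 226826 CPM in WT and 134494 to 154360 CPM in TSK, and that of 10 fibroblast genes was 6419 to 9723 CPM in WT and 20704 to 47872 CPM in TSK. TSK 2 stood apart, with 1448 CPM over 11 white adipocyte genes against 356 and 280 CPM in the other TSK libraries and 68.0 to 103 CPM in WT. Ucp1, the uncoupling protein that defines brown adipocytes, was at 79.9 CPM in TSK 2 and at 0.114 CPM or less in each of the other 5 libraries; it was singled out after its values were seen. Fold changes of the lipid genes below are given with and without TSK 2, as the rule of the gene list asks.

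On the deposited CPM, the lipid genes together were higher in every TSK library than in any WT library, whereas after TMM scaling the groups overlapped. Their summed level was 3227, 3297 and 3321 CPM in WT 1, 2 and 3 and 5172, 21097 and 4111 CPM in TSK 1, 2 and 3. After TMM scaling the sums were 3148, 4008 and 3747 CPM in WT and 4867, 18920 and 3642 CPM in TSK, so that TSK 3 lay below WT 2 and WT 3. On the deposited CPM, TSK 2 was 4.55 times the mean of the other TSK libraries. The ratio of the TSK to the WT mean on that scale was 3.09 with all libraries and 1.41 without TSK 2. Scd1 and Fasn made up 47.3% of the sum in TSK 2, and 7.39% to 21.1% in the other 5 libraries.

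**Figure D1:**
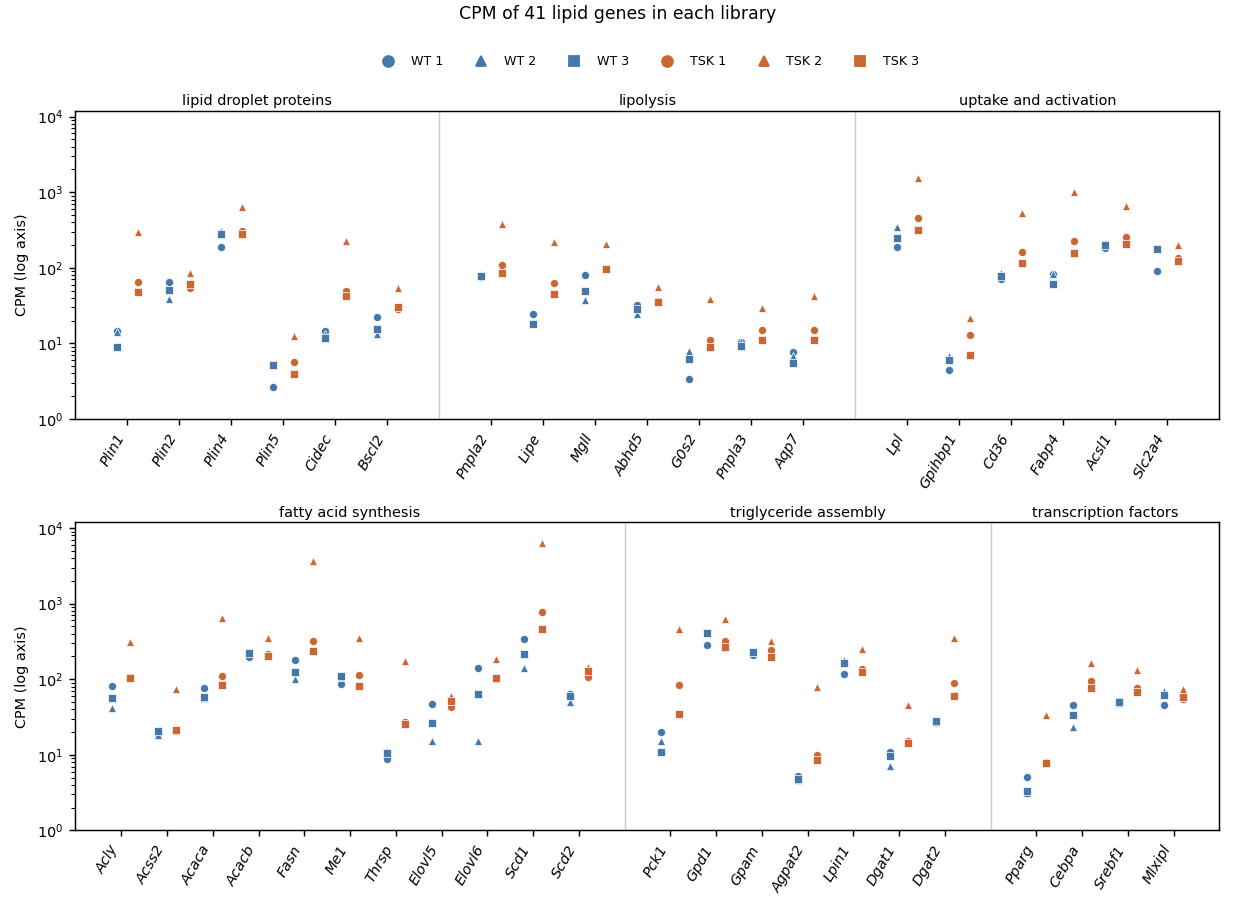
CPM of each of the 41 lipid genes, on a log axis, in the 3 WT libraries (blue) and the 3 TSK libraries (orange), with marker shapes for mouse 1, 2 and 3 and panels by role. The TSK 2 triangle is the highest point for each gene, and the order of the other TSK libraries relative to WT differs between genes such as Plin1 and Gpd1.

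TSK 2 was the highest of the 6 libraries for 41 of 41 genes on the deposited CPM and for 39 of 41 after TMM scaling, which corrects for a few abundant genes. Over all 19971 genes tested, TSK 2 was the highest for 27.7% and 15.1%. All 3 TSK libraries exceeded all 3 WT libraries for 27 of the 41 genes on deposited CPM, where the share of all genes was 29.1%, and for 19 on TMM CPM, where it was 14.1%. With TSK 2 left out the counts were again 27 and 19, against 34.1% and 17.9% of all genes. For none of the 41 were all TSK libraries below all WT libraries on either scale, a pattern found in 2.58% of all genes on deposited CPM and 10.6% on TMM CPM.

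In the test across all genes, Plin1, Scd2 and Cebpa were higher in TSK skin. These 3 of 41 genes passed edgeR's quasi-likelihood test at a Benjamini-Hochberg adjusted p below 0.05, where 2.71% of all genes were called higher, and 0 of 41 were called lower, where 0.681% of all genes were (0 lower also at unadjusted p below 0.05, and 0 by DESeq2 and by limma). Without TSK 2 the genes called higher numbered 6, namely Plin1, Cidec, Lipe, Thrsp, Scd2 and Dgat2, against 1.57% of all genes, and 0 were called lower, against 0.293%. Plin1 and Scd2 were called in both fits. The fit without TSK 2 omits the library that was highest for all 41 genes on deposited CPM, which lowered the SE of most of them. Its adjusted p values rest on 2 TSK mice and describe the dependence on this library, and they are not separate evidence. At unadjusted p below 0.05, 23 genes were higher and 0 lower with all libraries (12.1% and 7.9% of all genes), and 19 were higher and 0 lower without TSK 2 (10.4% and 6.3%).

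The median log2 fold change of the 41 genes was 0.98, beside -0.03 for all genes tested, and it was 0.46, beside -0.02, without TSK 2. Leaving TSK 2 out lowered the fold change of all 41 genes and lowered the SE of 36 of them. The fold changes ran from -0.31 to 3.40 with all libraries, with 35 above 0, and from -0.62 to 1.88 without TSK 2, with 29 above 0. The 6 genes below 0 with all libraries (Slc2a4, Mlxipl, Gpd1, Lpin1, Gpam and Acacb) were above 0 when edgeR used library size alone, a scaling that moved the median of all genes from -0.03 to 0.25. A smaller number of adipocytes and less RNA of a gene per adipocyte cannot be told apart in bulk tissue, and the same holds for more of either.

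**Figure D2:**
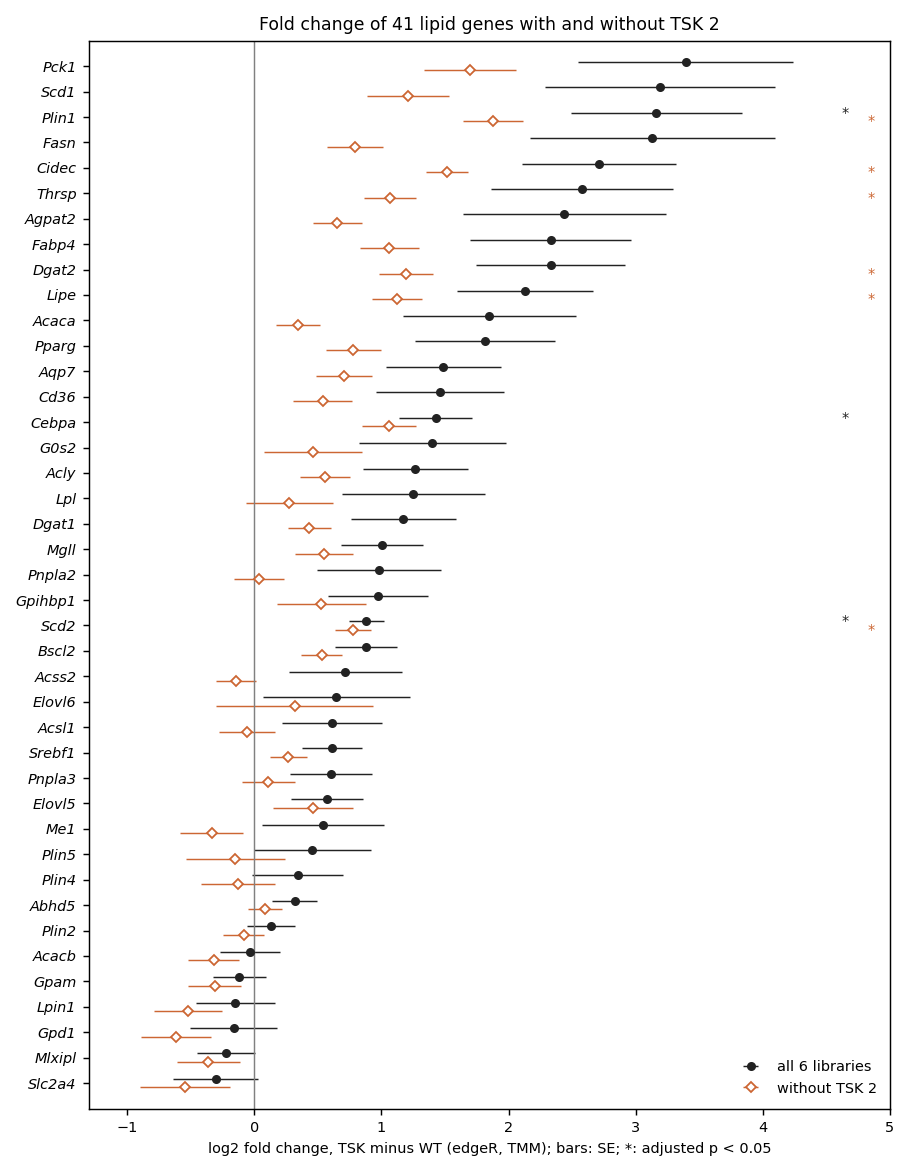
Log2 fold change, TSK minus WT, of each of the 41 lipid genes from edgeR with TMM, with all 6 libraries (black circles) and without TSK 2 (open orange diamonds), ordered by the first; bars are SE and asterisks mark an adjusted p below 0.05. Each diamond lies to the left of its circle, and the gap is 2.34 for Fasn (3.13 against 0.79) and 0.10 for Scd2 (0.88 against 0.78).

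The number of genes called depended on the fit. With all libraries, 16 were called higher with library size alone (8.44% of all genes) and 13 with limma-trend on log2 of the deposited CPM plus 1 or plus 0.1 (8.87% and 8.82%). With no filter on low counts 18 were called, against 5.04% of the 19971 genes that passed the filter and 2.99% of all 34809 genes in that fit, and with DESeq2 13 were called, against 5.6% and 3.26% of the same sets. With the replicate number as a block 4 were called, Cidec in addition (3.33%). At the threshold the study used, a fold above 2.5 with an adjusted p below 0.01, 0 were called by edgeR (0.255% of the 19971 genes) and 5 by DESeq2 (Plin1, Cidec, Aqp7, Cebpa and Pparg, against 1.53% of the 19971 and 0.891% of the 34809 genes). Without TSK 2 that threshold gave 0 with edgeR and 3 with DESeq2 (Plin1, Cidec and Pck1), against 1.24% of the 20508 genes edgeR tested. At adjusted p below 0.05 without TSK 2, 10 were called higher with library size alone (4.05%), 2 with limma-voom (0.98%), and 12 and 10 with limma-trend (3.98% and 3.53%). In that comparison 11 were called with no filter, against 5.31% of the 20508 genes and 3.26% of all 34173, and 11 with DESeq2, against 3.56% and 2.14%. Leaving out WT 2 or WT 3 left 0 called (1.09% and 0.218% of all genes), and leaving out TSK 3 left 7 (Plin1, Cidec, Lipe, Scd2, Pck1, Dgat2 and Cebpa, against 1.58% of all genes).

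Among the lipid droplet proteins, Plin1 and Cidec differed most between the groups, and the perilipins Plin2, Plin4 and Plin5 did not pass the test. Plin1, which coats the droplets of adipocytes, was at 14.6, 14.1 and 9.02 CPM in WT and 63.9, 302 and 47.3 CPM in TSK 1, 2 and 3. All TSK libraries were above all WT libraries, and TSK 1 and TSK 3 were close to each other. The log2 fold change of Plin1 was 3.16 (± 0.67 SE, adjusted p 0.0422 by edgeR), and 1.88 (± 0.24 SE, adjusted p 0.0157) without TSK 2. The call with all libraries was lost when WT 1, WT 2 or WT 3 was left out (edgeR adjusted p 0.0657, 0.102 and 0.171) and with limma-voom (0.0641). Plin1 lies at chr7:79720218-79732903 on the minus strand of GRCm38 and is counted over 4649 exonic bases.

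Cidec, which joins small droplets into the large droplet of white adipocytes, was at 14.6, 13.4 and 11.9 CPM in WT and 49.7, 228 and 41.9 CPM in TSK 1, 2 and 3. The groups did not overlap, and the WT libraries varied 1.23-fold among themselves. Cidec (chr6:113424634-113435760, minus strand) had a log2 fold change of 2.71 (± 0.61 SE, adjusted p 0.0511 by edgeR), and of 1.52 (± 0.16 SE, adjusted p 0.0104) without TSK 2. DESeq2 called Cidec in both fits (adjusted p 0.00947 and 3.39e-09). Plin4 had the highest mean CPM of these 6 genes, at 190, 306 and 284 CPM in WT and 307, 640 and 277 CPM in TSK. Its groups overlapped, since TSK 3 was below WT 2 and WT 3. The log2 fold change was 0.34 for Plin4, 0.46 for Plin5, the perilipin of oxidative tissues, and 0.13 for Plin2, which is found on droplets of most cells, and all of these were below 0 without TSK 2 (-0.13, -0.15 and -0.08). Bscl2, the seipin that shapes new droplets, had 0.88 (edgeR adjusted p 0.0922, DESeq2 0.0211), or 0.53 without TSK 2 (0.16 and 0.181), and 10.5% of its 50-base windows also occur in other genes, most often in Gng3, which it overlaps.

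The lipolysis genes lay higher in every TSK library than in any WT library on deposited CPM for 7 of 7 genes, and for 3 on TMM CPM, patterns found in 29.1% and 14.1% of all genes. Lipe, the hormone-sensitive lipase, was at 24.8, 19.4 and 18.0 CPM in WT and 63.5, 222 and 44.4 CPM in TSK. Its log2 fold change was 2.13 (± 0.53 SE, adjusted p 0.0684 by edgeR), and 1.12 (± 0.20 SE, adjusted p 0.0352) without TSK 2, when it was called higher. With limma-voom the call of Lipe without TSK 2 was lost (adjusted p 0.0513). Lipe lies at chr7:25379527-25398710 on the minus strand, and 10.8% of its 50-base windows also occur in other genes, most often in the overlapping 4732471J01Rik on the opposite strand. Pnpla2, the lipase that removes the first fatty acid, had the highest mean CPM of the role, at 75.2, 82.0 and 79.0 CPM in WT and 109, 377 and 86.3 CPM in TSK. TSK 3 exceeded the highest WT library by little, and the log2 fold change of 0.98 (± 0.49 SE, adjusted p 0.31 by edgeR) was 0.04 without TSK 2.

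The partners of Pnpla2 also failed the test. Its coactivator Abhd5 had a log2 fold change of 0.32, its inhibitor G0s2 had 1.4, and its relative Pnpla3, a lipid droplet hydrolase, had 0.60 (edgeR adjusted p 0.366, 0.224 and 0.344). Without TSK 2 these were 0.09, 0.46 and 0.11. G0s2 was at 3.36, 7.99 and 6.21 CPM in WT and at 11.1, 38.1 and 8.85 CPM in TSK, so the nearest libraries of the groups differed by less than the WT libraries did. Mgll, the monoglyceride lipase, had 1.00 and Aqp7, the channel through which glycerol leaves adipocytes, had 1.49, neither called by edgeR (adjusted p 0.132 and 0.113). DESeq2 called Lipe, Mgll and Aqp7 higher with all libraries (adjusted p 0.0348, 0.0282 and 0.00985). Without TSK 2 the DESeq2 calls of Mgll and Aqp7 were lost (adjusted p 0.282 and 0.173), and their edgeR log2 fold changes were 0.55 and 0.70.

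Of the uptake and activation genes, Fabp4 had the largest fold change, and Slc2a4 was below 0. None of the 6 was called by edgeR in either fit, with 3 and 2 higher at an unadjusted p below 0.05 with and without TSK 2, and none by DESeq2 or limma-voom with all libraries, whereas limma-trend called Fabp4. Lpl, the lipoprotein lipase, had the highest mean CPM, at 190, 346 and 252 CPM in WT and 461, 1559 and 321 CPM in TSK. TSK 3 was below WT 2, and the log2 fold change was 1.25 (± 0.56 SE, adjusted p 0.261 by edgeR), or 0.27 without TSK 2. Fabp4, the fatty acid carrier of adipocytes and capillary endothelium, was at 82.3, 82.7 and 60.7 CPM in WT and 223, 1011 and 155 CPM in TSK. Its groups did not overlap, with a log2 fold change of 2.33 (edgeR adjusted p 0.086) and of 1.06 (adjusted p 0.0669) without TSK 2, and DESeq2 called it without TSK 2 (adjusted p 0.00189).

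Cd36, a fatty acid transporter, had a log2 fold change of 1.46, and Gpihbp1, which holds Lpl on capillaries, had 0.97 (edgeR adjusted p 0.153 and 0.216), and without TSK 2 they had 0.54 and 0.53. Beside them, 8 endothelial genes summed to 160 to 189 CPM in WT and 243 to 458 CPM in TSK, and their part in the values of Fabp4, Cd36 and Gpihbp1 was not tested. Acsl1, which activates fatty acids with coenzyme A, had 0.61 with all libraries and -0.06 without TSK 2. Slc2a4, the insulin-responsive glucose transporter of muscle and fat, was at 91.3, 185 and 177 CPM in WT and 135, 201 and 122 CPM in TSK, and had a log2 fold change of -0.31 (edgeR adjusted p 0.666), -0.55 without TSK 2 and 0.01 with library size alone.

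Fatty acid synthesis held the widest differences between libraries. The summed level of the 11 genes was 1235, 786 and 964 CPM in WT and 1936, 12283 and 1509 CPM in TSK 1, 2 and 3. Scd1, the main stearoyl-CoA desaturase of fat and sebaceous cells, was at 337, 142 and 213 CPM in WT and 774, 6275 and 468 CPM in TSK. TSK 2 was 10.1 times the mean of the other TSK libraries, and the log2 fold change of 3.19 (± 0.90 SE, adjusted p 0.0946 by edgeR) was 1.21 (± 0.32 SE, adjusted p 0.117) without it. DESeq2 called Scd1 higher without TSK 2 (adjusted p 0.00577) but not with all libraries (0.0522). Fasn, the fatty acid synthase, was at 177, 102 and 125 CPM in WT and 318, 3710 and 235 CPM in TSK. TSK 2 was 13.4 times the mean of the other TSK libraries for Fasn, more than for any other of the 41 genes, and the log2 fold change was 3.13 (± 0.96 SE, adjusted p 0.117 by edgeR) with it and 0.79 (± 0.22 SE, adjusted p 0.13) without it. DESeq2 called Fasn higher without TSK 2 (adjusted p 0.0249).

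Scd2, the desaturase with wider expression, behaved differently from Scd1. It was at 63.1, 49.5 and 59.3 CPM in WT and 108, 146 and 129 CPM in TSK. TSK 2 was 1.24 times the mean of the other TSK libraries, the lowest such ratio among the 41 genes, and the groups did not overlap. The log2 fold change was 0.88 (± 0.14 SE, adjusted p 0.0171 by edgeR), and 0.78 (± 0.14 SE, adjusted p 0.04) without TSK 2. Its call was lost when WT 2 or WT 3 was left out (edgeR adjusted p 0.0558 and 0.0829), and its call without TSK 2 was lost with limma-voom (adjusted p 0.0538). Scd2 (chr19:44293674-44306864, plus strand) and Scd1 (chr19:44394455-44407879, minus strand) are neighbours, and 3.97% of the 50-base windows of Scd2 also occur in other genes, most often in Scd1.

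Thrsp, a nuclear protein that promotes fatty acid synthesis, was at 8.88, 11.4 and 10.5 CPM in WT and 26.8, 175 and 25.8 CPM in TSK. TSK 1 and TSK 3 were nearly equal and above all WT libraries. Its log2 fold change was 2.58 (± 0.72 SE, adjusted p 0.0903 by edgeR), and 1.07 (± 0.20 SE, adjusted p 0.0453) without TSK 2, when it was called higher. With limma-voom that call was lost (adjusted p 0.0516). Thrsp lies at chr7:97412938-97417730 on the minus strand.

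The enzymes ahead of Fasn differed less between TSK 1, TSK 3 and WT. Acly, which makes cytosolic acetyl-CoA, had a log2 fold change of 1.27 with all libraries and 0.56 without TSK 2, and Acaca, the carboxylase that commits acetyl-CoA to synthesis, had 1.85 and 0.34. Acacb, the mitochondrial carboxylase isoform of oxidative tissue, had -0.03 and -0.32, and turned positive with library size alone (0.26). Acss2, which makes acetyl-CoA from acetate, had 0.72 and -0.14, and Me1, which supplies NADPH, had 0.54 and -0.34. None of these was called by edgeR, DESeq2 called Acly with all libraries (adjusted p 0.0166) but not without TSK 2 (0.2), and 30.4% of the 50-base windows of Acaca and 28.3% of those of Me1 also occur in other genes, most often in Gm5182 and Gm7049.

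The elongases Elovl5 and Elovl6 varied widely within WT, and had log2 fold changes of 0.57 and 0.65, or 0.46 and 0.32 without TSK 2. Elovl6 was at 139, 15 and 63.9 CPM in WT and 101, 185 and 105 CPM in TSK, so the WT libraries spanned 9.25-fold and enclosed TSK 1 and TSK 3. Elovl5 was at 46.4, 15.1 and 26.4 CPM in WT and 43.2, 59.2 and 51.0 CPM in TSK, and was called higher by edgeR when WT 1 was left out but not with all libraries. The 11 sebaceous gland genes had the same order in WT, with sums of 284, 61.2 and 180 CPM, and were at 277, 316 and 320 CPM in TSK. WT 1 above WT 3 above WT 2 was the order of 16 of the 41 genes, Scd1, Fasn, Acly and Mgll among them. WT 2 was the highest WT library for 13 genes and WT 1 the lowest for 17, and the shares of all genes were not counted. Of the other lists described below, the keratinocyte, macrophage, hair follicle, cholesterol synthesis and other lipid pathway sums also had this order. The white and brown adipocyte, muscle, fibroblast, endothelial and oxidation sums did not. The part of sebaceous tissue in this order was not tested.

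In triglyceride assembly, Dgat2, Pck1, Agpat2 and Dgat1 had positive fold changes in both fits, and Gpd1, Gpam and Lpin1 had negative ones. Dgat2, which adds the last fatty acid, was at 26.2, 27.3 and 27.9 CPM in WT and 89.6, 352 and 60.2 CPM in TSK. The WT libraries agreed within 1.06-fold and all TSK libraries were above them. Its log2 fold change was 2.33 (± 0.59 SE, adjusted p 0.0698 by edgeR), and 1.19 (± 0.21 SE, adjusted p 0.0376) without TSK 2, when it was called higher. It was also called by DESeq2 with all libraries (adjusted p 0.0335), and its call without TSK 2 was lost with limma-voom (adjusted p 0.0525). Dgat2 lies at chr7:99153658-99182719 on the minus strand. Its unrelated counterpart Dgat1 had 1.17 with all libraries, where DESeq2 called it (adjusted p 0.0435) and edgeR did not (0.162), and 0.43 without TSK 2, where neither did (0.436 and 0.259).

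Pck1, which makes glycerol phosphate from small precursors in fat, had the largest fold change of the 41 genes with all libraries. It was at 19.8, 15.1 and 10.9 CPM in WT and 82.7, 465 and 34.5 CPM in TSK. TSK 1 was 2.40 times TSK 3, and the log2 fold change was 3.40 (± 0.85 SE, adjusted p 0.068 by edgeR) with TSK 2 and 1.70 (± 0.36 SE, adjusted p 0.0618) without it, so Pck1 missed the threshold in both edgeR fits. DESeq2 called Pck1 in both (adjusted p 0.0162 and 0.000378). Agpat2, an acyltransferase whose loss causes absence of fat, was at 4.63 to 5.24 CPM in WT and at 10.0, 78.6 and 8.48 CPM in TSK, with a log2 fold change of 2.44 (edgeR adjusted p 0.137), and of 0.65 (adjusted p 0.151) without TSK 2.

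Gpd1, which makes glycerol phosphate from glycolysis, had the highest mean CPM of the role, at 287, 404 and 411 CPM in WT and 318, 630 and 267 CPM in TSK. TSK 3 was the lowest and TSK 2 the highest library, and the log2 fold change was -0.16 (± 0.34 SE, adjusted p 0.839 by edgeR) and -0.62 (± 0.28 SE, adjusted p 0.312) without TSK 2. Gpam, the first acyltransferase, had -0.12 and -0.31, and Lpin1, the phosphatidate phosphatase of muscle and fat, had -0.15 and -0.52. With library size alone Gpd1, Gpam and Lpin1 were at 0.14, 0.17 and 0.16. Gpd1, Gpam and Lpin1 are also transcribed in skeletal muscle, whose 13 genes had a median log2 fold change of -0.77 with 0 called by edgeR (at unadjusted p below 0.05, 1 was higher and 7 were lower) and 1 higher and 9 lower by DESeq2. The part of muscle in the values of these genes was not tested.

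Of the transcription factors, Cebpa was called higher with all libraries. It was at 46.1, 23.6 and 34.0 CPM in WT and 94.7, 162 and 75.7 CPM in TSK, and its groups did not overlap. The log2 fold change was 1.43 (± 0.29 SE, adjusted p 0.0351 by edgeR), and 1.06 (± 0.21 SE, adjusted p 0.0524) without TSK 2. The call was also lost when TSK 1, WT 2 or WT 3 was left out (edgeR adjusted p 0.0567, 0.105 and 0.14). DESeq2 called Cebpa with all libraries and without TSK 2 (adjusted p 8.1e-05 and 0.00166). Without TSK 2 it was also called with library size alone and with limma-trend, but not with limma-voom (adjusted p 0.0664). Cebpa is an intronless gene at chr7:35119293-35121928 on the plus strand.

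Pparg was at 5.07, 3.14 and 3.35 CPM in WT and 8.03, 33.2 and 7.74 CPM in TSK. Its groups did not overlap, with a log2 fold change of 1.81 (± 0.55 SE, adjusted p 0.112 by edgeR) and of 0.78 (± 0.21 SE, adjusted p 0.124) without TSK 2, and DESeq2 called it with all libraries (adjusted p 0.00558) but not without TSK 2 (0.137). Srebf1 had 0.61 and 0.27, with WT libraries within 1.09-fold of each other, and was not called by edgeR (adjusted p 0.197 and 0.413). Mlxipl had -0.22 and -0.36, turned positive with library size alone (0.085), and was not called.

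By role, the median log2 fold change with all libraries and without TSK 2 was 0.67 and 0.22 for droplet proteins, 1.00 and 0.46 for lipolysis, 1.11 and 0.40 for uptake and activation, 0.88 and 0.46 for fatty acid synthesis, 1.17 and 0.43 for triglyceride assembly, and 1.02 and 0.52 for transcription factors. All 6 medians were above those of all genes tested in both fits. Per kilobase of exon, the highest WT means were those of Gpd1 (124 CPM per kb), Scd1 (47.1), Plin4 (45.0) and Slc2a4 (43.4), and the lowest was that of Pparg (1.31). In TSK 2 Scd1 was first, at 1283 CPM per kb, followed by Fasn at 339 and Fabp4 at 225.

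To describe how the genes moved relative to adipocyte RNA, each was divided by Adipoq, the adiponectin gene of mature adipocytes, in the same library. Adipoq was at 12.3, 10.2 and 8.36 CPM in WT and 47.8, 247 and 33.3 CPM in TSK, with log2 fold change 3.13 (edgeR adjusted p 0.0519) and 1.72 (adjusted p 0.0139) without TSK 2. Plin1 stayed at 1.08 to 1.42 CPM per CPM of Adipoq in all 6 libraries, a range of 1.32-fold, while its CPM spanned 33.5-fold. Cidec ranged over 1.54-fold per Adipoq and 19.2-fold in CPM. In all, 5 genes (Plin1, Cidec, Pck1, Scd1 and Fabp4) stayed within 2-fold per Adipoq, 19 had a smaller range per Adipoq than in CPM, and 22 had a larger one. The same counts over all genes tested were not made, so these numbers do not show whether the lipid genes stood out.

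Fasn and Scd1 were higher in TSK 2 than in the other TSK libraries also per Adipoq. Fasn was at 14.4, 10.0 and 15 per Adipoq in WT and 6.65, 15 and 7.04 in TSK, and Scd1 was at 27.4, 13.9 and 25.5 in WT and 16.2, 25.4 and 14.1 in TSK. TSK 2 lay within the WT range for Scd1 and lay close to the highest WT library for Fasn, and TSK 1 and TSK 3 were below it for Fasn. Lipe showed the other order, at 1.33 in TSK 1 and TSK 3 and 0.897 in TSK 2. TSK 2 was above TSK 1 and TSK 3 per Adipoq for 5 of the 41 genes, and the share of all genes was not counted.

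Every TSK ratio was below every WT ratio for 33 of the 41 genes, a pattern found for 90.2% of all genes tested, and for none of the 41 was every TSK ratio above. Slc2a4, Gpd1, Lpin1, Gpam, Mlxipl and Acacb had TSK means of 0.154 to 0.186 times the WT mean per Adipoq, the lowest of the list. These ratios share the Adipoq value of each library and carry no test, and each falls by construction as Adipoq rises.

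**Figure D3:**
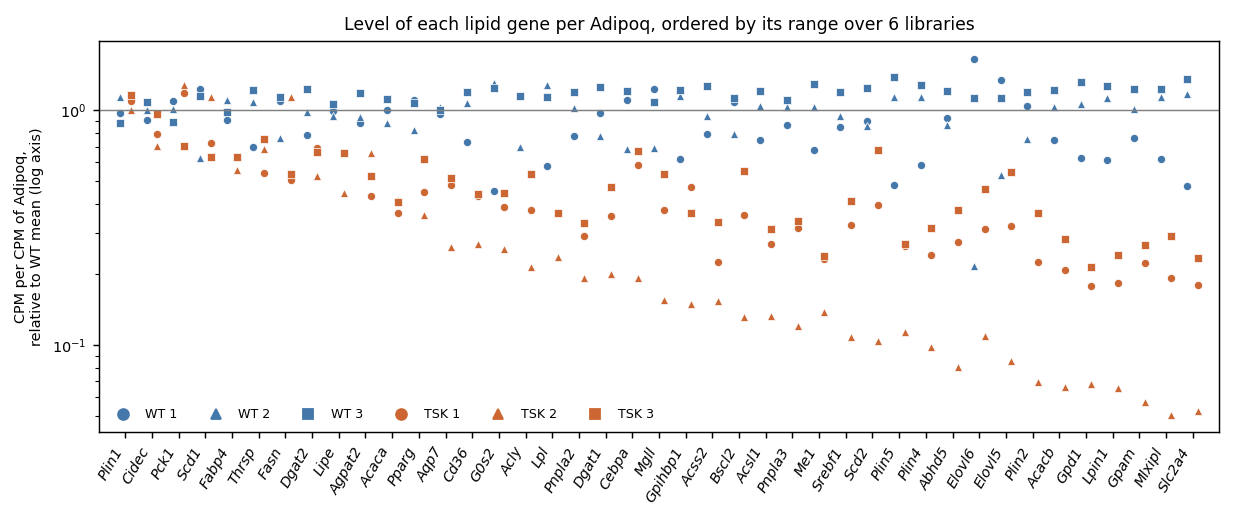
CPM of each lipid gene per CPM of Adipoq, relative to its WT mean, on a log axis, for the 3 WT (blue) and 3 TSK (orange) libraries, with genes ordered by their range over the 6 libraries. Plin1 at the left stays near 1 in all libraries (range 1.32-fold), and at the right the TSK libraries, TSK 2 most of all, lie far below WT (range 26.0-fold for Slc2a4).

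Promoter windows are shown for the genes called by edgeR in either fit, since these carry the calls above. RefSeq windows on GRCm38.p6, from 250 bases before to 50 after a start site, were found for 32 of the 41 genes and for 5 of the 7 called in either fit. They are printed 5' to 3' on the gene's strand with motif letters in capitals. Plin1 is at chr7:79732727-79733026 (minus), Cidec at chr6:113435711-113436010 (minus), Lipe at chr7:25395938-25396237 (minus), Thrsp at chr7:97417501-97417800 (minus) and Cebpa at chr7:35119043-35119342 (plus).
Plin1: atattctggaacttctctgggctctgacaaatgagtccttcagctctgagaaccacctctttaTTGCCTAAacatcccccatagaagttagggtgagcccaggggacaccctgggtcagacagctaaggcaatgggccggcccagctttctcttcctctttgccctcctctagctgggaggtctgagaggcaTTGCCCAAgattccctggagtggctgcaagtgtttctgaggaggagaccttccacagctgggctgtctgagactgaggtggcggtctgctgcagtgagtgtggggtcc
Cidec: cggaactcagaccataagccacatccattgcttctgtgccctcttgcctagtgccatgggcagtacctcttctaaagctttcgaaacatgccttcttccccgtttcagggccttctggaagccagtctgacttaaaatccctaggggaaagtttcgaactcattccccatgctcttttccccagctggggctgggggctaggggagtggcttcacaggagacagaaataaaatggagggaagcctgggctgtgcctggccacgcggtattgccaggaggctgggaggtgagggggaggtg
Lipe: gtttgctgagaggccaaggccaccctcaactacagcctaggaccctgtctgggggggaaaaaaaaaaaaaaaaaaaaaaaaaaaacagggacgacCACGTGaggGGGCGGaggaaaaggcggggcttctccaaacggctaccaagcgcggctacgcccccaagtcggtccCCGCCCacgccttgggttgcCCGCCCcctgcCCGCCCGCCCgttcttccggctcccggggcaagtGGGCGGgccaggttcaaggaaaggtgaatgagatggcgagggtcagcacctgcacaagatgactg
Thrsp: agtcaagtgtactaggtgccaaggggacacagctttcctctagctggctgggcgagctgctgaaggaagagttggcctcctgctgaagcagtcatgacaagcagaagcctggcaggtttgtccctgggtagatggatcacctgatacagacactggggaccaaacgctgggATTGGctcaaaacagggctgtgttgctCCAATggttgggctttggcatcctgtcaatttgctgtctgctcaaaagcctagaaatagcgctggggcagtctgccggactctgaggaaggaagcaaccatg
Cebpa: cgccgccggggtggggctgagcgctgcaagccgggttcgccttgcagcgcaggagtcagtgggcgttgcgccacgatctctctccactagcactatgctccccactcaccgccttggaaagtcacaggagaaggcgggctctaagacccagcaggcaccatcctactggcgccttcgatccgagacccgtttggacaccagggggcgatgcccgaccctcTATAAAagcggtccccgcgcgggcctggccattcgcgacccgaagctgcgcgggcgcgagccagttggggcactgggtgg

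The motifs searched, on both strands, were the C/EBP letters TTGCNNAA, the SREBP letters TCACNCCAC, the E-box letters CACGTG, the TATA box letters TATAAA, the CCAAT box and the GC box letters GGGCGG, and a PPAR-RXR direct repeat with a spacer of 1 base. The capitals in Plin1 mark the C/EBP letters 187 and 58 bases before the start, those in Lipe an E-box 155 bases before it and GC boxes, those in Thrsp CCAAT letters 79 and 52 bases before it, and those in Cebpa a TATA box 30 bases before it. The Cidec window printed, which is the one nearest the annotated 5' end, holds none of these letters, and the window of its other start holds C/EBP letters 198 bases before that start. The C/EBP letters were in 8.51% of the 47 windows of the 32 genes (those of Plin1, Cidec, Pparg and Gpam) and in 10.8% of all 32851 windows. The shares of the 47 and of all windows were 4.26% and 1.24% for the SREBP letters, 10.6% and 7.15% for the E-box, 6.38% and 13.6% for TATA, 42.6% and 37.4% for CCAAT, 51.1% and 35.7% for the GC box, and 0% and 0.381% for the PPAR-RXR repeat. Genes with several starts have several windows, a match is a run of letters and not a bound site, and an absent match says only that the letters are not in the window.

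Of 45 other genes of the same pathways, 41 were tested, with a median log2 fold change of 0.21, or 0.22 without TSK 2. Higher in TSK were Fads1, Fads2, Agpat4 and Elovl1, and lower was Acsl6, so that 5 were called, where 3.39% of all genes were called in either direction. Fads1, the delta-5 desaturase of polyunsaturated fatty acids, was at 7.06, 6.18 and 6.98 CPM in WT and 15.2, 22.9 and 23.0 CPM in TSK (log2 fold change 1.31, edgeR adjusted p 0.0114, and 1.22 without TSK 2). Acsl6, an acyl-CoA synthetase of brain and muscle, was at 10.3, 9.64 and 11.8 CPM in WT and 5.21, 4.42 and 6.15 CPM in TSK (log2 fold change -1.29, edgeR adjusted p 0.0147, and -1.17 without TSK 2). For both genes the groups did not overlap and TSK 2 was not set apart from the other TSK libraries. Without TSK 2, 5 were called higher and 1 lower, since Elovl1 lost its call (edgeR adjusted p 0.0689) and Pde3b and Prkar2b, which act on cyclic AMP signalling, were called (0.0352 and 0.0196), and without WT 3 0 were called in all.

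None of the 19 tested cholesterol synthesis genes was called by edgeR, DESeq2 or limma-voom, at unadjusted p below 0.05 3 were higher and 0 lower, 1 was called by limma-trend, and the median log2 fold change was 0.25. Their summed level was 596, 295 and 431 CPM in WT and 638, 648 and 575 CPM in TSK, without the high value of TSK 2 seen for fatty acid synthesis. Of 21 fatty acid oxidation genes 1 was called, Ucp3, a mitochondrial carrier of skeletal muscle, at 48.1, 35.2 and 48.7 CPM in WT and 28.9, 32.8 and 27.7 CPM in TSK (log2 fold change -0.84, edgeR adjusted p 0.0191, and -0.90 without TSK 2). The call of Ucp3 was lost without TSK 1, TSK 3 or WT 3, with library size alone and with limma-trend. The median of the oxidation genes was 0.07 with all libraries and -0.32 without TSK 2, when 20 of 21 were below 0.

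Marker genes of the cell types in skin moved as follows beside the lipid genes. All 11 white adipocyte genes had positive fold changes, with a median of 2.88 and 4 called with all libraries, and a median of 1.60 and 7 called without TSK 2. Cfd had 2.56 (edgeR adjusted p 0.0379) and 1.60 without TSK 2 (0.0165), and Adipoq is given above. The brown adipocyte list had a median of 0.29, or -0.25 without TSK 2, over 6 tested genes with 0 called by edgeR (at unadjusted p below 0.05 2 were higher and 0 lower, and DESeq2 called 1), and its most abundant genes Cox8b and Cox7a1 had -0.26 and -0.35, or -0.48 and -0.65 without TSK 2. Cidea, Dio2 and Zic1 of that list had 2.09, 0.83 and 1.32, and without TSK 2 they had 0.10, -0.02 and 1.57, when Zic1 was called (edgeR adjusted p 0.0279). Ucp1 and Otop1 of that list did not pass the filter on low counts and are not in its median. Otop1 was at 10.3 CPM in TSK 2 and at 0.605 CPM or less in each of the other libraries. Of the sebaceous genes 0 of 11 were called (1 higher at an unadjusted p below 0.05, 1 by DESeq2), with 0.62 for Krt79 and 0.32 for Soat1. Ttn and Myh4 of muscle had -0.74 and -1.09, Col1a1 and Col3a1 of fibroblasts 1.84 and 1.24, and Cdh5 and Pecam1 of endothelium 0.66 and 0.46. Lyz2 and Mrc1 of macrophages had 0.84 and 1.16, Krt5 and Krt15 of keratinocytes -0.60 and -0.30, and Hoxc13 and Krt71 of the growing hair follicle 0.71 and 3.74, of which Krt71 was called (edgeR adjusted p 0.032) but not without TSK 2 (0.071) or by DESeq2 (0.0592). Of the 8 keratinocyte genes 1 was called higher, Lor, a protein of the cornified layer (1.78, edgeR adjusted p 0.00913, and 0.0186 without TSK 2), and 0 lower. Also called higher were 4 of 10 fibroblast genes, 1 of 8 endothelial genes and 3 of the 6 hair follicle genes tested, and none of these was called lower. Without TSK 2 these were 2, 1 and 1. Of 8 macrophage genes edgeR called 0 (6 higher and 0 lower at unadjusted p below 0.05) and DESeq2 3. The 9 hair follicle genes summed to 5.06 to 13.4 CPM in WT and 27.1 to 34.5 CPM in TSK. No marker was at 0 in all libraries. The part of these cell types in the values of the lipid genes was not tested.

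**Figure D4:**
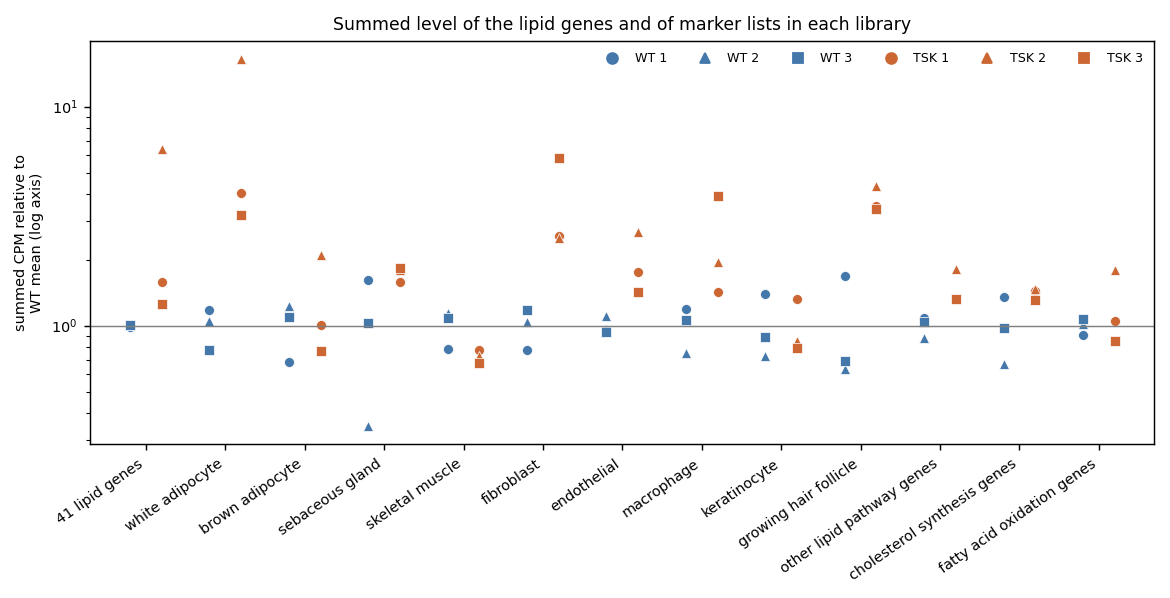
Summed CPM of the 41 lipid genes, of 9 marker lists and of 3 further pathway lists in each library, relative to the WT mean of the list, on a log axis. TSK 2 lies highest for the lipid genes (21097 CPM) and for the white adipocyte list (1448 CPM), whereas TSK 3 lies highest for the fibroblast and macrophage lists (47872 and 1113 CPM) and the skeletal muscle list lies below its WT mean in each TSK library.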

How the data were processed

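RNA of shaved dorsal skin from 3 WT and 3 TSK mice, 1 library per mouse, was analysed. Groups and replicate numbers came from the sample titles. The libraries were stranded, depleted of ribosomal RNA and sequenced as single reads of 50 bases. Per the submitters' processing notes, bcl2fastq 2.19.1.403, STAR and Partek 11.0 were used with mm10. The table the authors deposited as raw holds estimated counts, of which 43.3% to 45.4% of the values above 0 in a library were whole (within 0.001), so the count test planned was run on counts rounded to whole numbers. The deposited CPM values, scaled by the authors to 1000000 per library, were used for levels. How reads were assigned by strand and to shared sequence is not given in the sources used here.

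The whole table was fitted with edgeR 4.0.16 (quasi-likelihood test, TMM, filterByExpr, Benjamini-Hochberg) in R 4.3.3, which kept 19971 genes, or 20508 without TSK 2. Fold changes are log2 of TSK over WT, and SE was derived from the F statistic. DESeq2 1.42.0 and limma 3.58.1 (voom, and trend on log2 CPM plus 1 or 0.1) were alternatives, as were library size alone, DESeq2 size factors, library sizes without muscle, ribosomal and mitochondrial genes, no filter, a CPM of at least 1 in 3 libraries, the replicate number as a block, and fits with each library omitted in turn. The scripts were tested on simulated data. No pair of libraries of the same group agreed within sampling noise (lowest chi-square per degree of freedom 8.87), and pairs across the groups were not compared. The mice are separate animals, and the labels name no batch.

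The lipid genes and all other lists were chosen with earlier results of these data known. Values per library are given for genes called in either fit and for the gene with the highest mean CPM of each role, and for further genes whose pattern the text describes (Fabp4, Fasn, Slc2a4, Elovl5, Elovl6, Pck1, Agpat2, G0s2 and Pparg), chosen after their values were seen. Outside the 41, Fbn1, Adipoq, the called gene of largest fold change of each pathway list and direction, and the 2 most abundant genes of each marker list are named by rule. Named after their values were seen are Ucp1, Otop1, Cidea, Dio2, Zic1, Lor, Fads2, Agpat4, Elovl1, Pde3b, Prkar2b, Ddx3y, Eif2s3y, Kdm5d and Uty. Coordinates and exon lengths are from GENCODE M21 on GRCm38, and 40 of the 41 genes had the same coordinates in the deposited table (Lpin1 did not). Windows of 50 bases shared with other annotated transcripts were counted for each gene, and 9 of the 41 shared at least 5%.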

Additional observations from a re-analysis of the deposited data

How the results depend on the processing

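The count of lipid genes called higher (3 with all libraries, 6 without TSK 2) moved with the fit. With all libraries it was 16 with library size alone, 18 with no filter on low counts, 13 with DESeq2, 13 with limma-trend at either pseudocount and, at a fold above 2.5 with adjusted p below 0.01, 0 by edgeR and 5 by DESeq2, and it ran from 0 to 7 when 1 library was left out. Without TSK 2 it was 10 with library size alone, 11 with no filter, 11 with DESeq2, 2 with limma-voom, 12 and 10 with limma-trend at pseudocounts of 1 and 0.1, and at the stricter threshold 0 by edgeR and 3 by DESeq2. None was called lower in any fit. The median log2 fold change (0.98) ran from 0.46, without TSK 2, to 1.30, without TSK 3, and without TSK 2 (0.46) it was 0.74 and 0.80 with limma-trend at pseudocounts of 1 and 0.1. The other lipid pathway genes called (5) became 10 with library size alone, 11 with no filter, 11 with DESeq2, 10 and 10 with limma-trend and 0 at the stricter threshold by edgeR, and 0 (without WT 3) to 6 with 1 library left out. For cholesterol synthesis (0) it was 1 with library size alone and 1 and 1 with limma-trend. For fatty acid oxidation (1) it was 0 with library size alone, 0 and 0 with limma-trend, 0 at the stricter threshold by edgeR, and 0 to 2 (without WT 1) with 1 library left out. Why these counts moved was not tested.

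Fold changes that turned sign belonged to genes that were not called. With 1 library left out, they ran from the value without TSK 2 to the value without TSK 3 as follows: -0.13 to 0.56 for Plin4, -0.15 to 0.77 for Plin5, -0.059 to 0.91 for Acsl1, -0.14 to 1.01 for Acss2, -0.34 to 0.90 for Me1, -0.32 to 0.12 for Acacb, -0.62 to 0.074 for Gpd1 and -0.31 to 0.040 for Gpam. Plin2 ran from -0.085 without TSK 2 to 0.25 without WT 1, and Lpin1 from -0.52 without TSK 2 to 0.058 without WT 2. With library size alone and with limma-trend at pseudocounts of 1 and 0.1, in that order, Slc2a4 was at 0.015, 0.047 and 0.048, Acacb at 0.26, 0.21 and 0.22, Gpd1 at 0.14, 0.058 and 0.058, Gpam at 0.17, 0.14 and 0.14, Lpin1 at 0.16, 0.11 and 0.11, and Mlxipl at 0.085, 0.090 and 0.092. In the fits without TSK 2 under the same settings, Plin2 was at 0.17, 0.19 and 0.20, Plin4 at 0.17, 0.20 and 0.20, Plin5 at 0.15, 0.16 and 0.20, Acsl1 at 0.22, 0.22 and 0.22, and Acss2 at 0.13, 0.13 and 0.13. Counting each fold change of the 41 genes under each alternative, 544 of 656 with all libraries and 326 of 369 without TSK 2 kept their direction and their side of the threshold.

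The labels name no pairing of same-numbered WT and TSK mice, and whether such mice shared a litter is not given. The correlations of same-numbered deviations were 0.01, 0.17 and -0.09. With the replicate number as a block 4 lipid genes were called higher (Cidec in addition), 5 other lipid pathway genes, 0 cholesterol synthesis and 1 oxidation gene.

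There were 3 mice a group, and without TSK 2 the TSK group held 2. Fasn and Agpat2 have no adjusted p in DESeq2 with all libraries.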
